A study of Oryza sativa with 4 samples.

Results

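The DREB1 genes encode transcription factors of the AP2/ERF class, and 5 of them were examined in rice plants overexpressing OsC3H10, a CCCH-type zinc finger protein. They are OsDREB1A (Os09g0522200), OsDREB1B (Os09g0522000), OsDREB1H (Os09g0522100), OsDREB1C (Os06g0127100) and Os02g0677300, which is annotated as similar to CRT/DRE binding factor 1. The 5 genes, each with 1 listed transcript, were taken by identifier out of 31414 genes and 37972 transcripts. They were chosen by their measured values in the comparison described here, so their levels and fold changes are a description and carry no test.

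The libraries came from whole 3-week-old rice plants with no stress treatment. Nontransgenic plants (NT) were compared with OsC3H10OX plants, whose label reads PGD1::OsTZF8, with 2 biological replicates each. The OsC3H10OX plants were the T4 generation of a single line, number 20, homozygous for 1 copy of OsC3H10 behind PGD1, a promoter used for expression in the whole plant. Both groups were of the cultivar Nakdong by the study's growth methods, while its section on plant material names only Nipponbare and Ilmi. The NT samples are described by the cultivar and a number that could be a year, the OsC3H10OX samples by neither, so a difference in growth or sequencing batch cannot be told apart from the genotype. OsC3H10 itself was not analysed here, and the group labels were therefore not checked with the overexpressed gene.

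DREB1 proteins, called CBF in Arabidopsis, bind the dehydration-responsive element, also called the C-repeat, in the promoters of cold- and dehydration-responsive genes. In Arabidopsis, ICE1-type bHLH factors and calmodulin-binding CAMTA factors activate these genes in the cold, and the circadian clock and phytochrome-interacting factors set their level in unstressed plants. In rice, MYBS3 represses DREB1 genes during long exposure to cold, and overexpressed DREB1 genes raise tolerance to cold, drought and salt.

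Levels are given as FPKM, reads scaled to the length of the transcript and the depth of the library. The values lie on steps of whole reads, which puts 1 FPKM at 36.9 and 56.1 reads per kilobase in NT replicates 1 and 2 and at 40.9 and 37.8 in OsC3H10OX replicates 1 and 2. The length counted here is the transcript's less 180 nt, or 170 nt in NT replicate 2, which fitted these steps best, and all read numbers below are inferred in this way. A log2 fold change is the mean of OsC3H10OX less that of NT, taken on the deposited normalized log2(FPKM + 1) values, where changes around or below 1 FPKM come out too small. Limma was fitted to 30449 transcripts that reached 1 FPKM in 2 or more libraries, and those with an adjusted p (Benjamini-Hochberg, BH) under 0.05 were called. All 5 DREB1 transcripts passed this filter. Of all tested transcripts, 0.841% were called lower and 0.647% higher, and the median log2 fold change was 0.00. An unadjusted p under 0.05 (limma) was found in 5391 of the 30449, in either direction. This is the background for the unadjusted counts below.

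All 5 DREB1 transcripts had lower values in both OsC3H10OX libraries than in either NT library. OsDREB1B had the highest FPKM in NT, 59.1 and 63.1, and had 6.84 and 3.81 FPKM in OsC3H10OX. The values of its NT libraries lay within 1.07 times each other, and the group means differed 11.5-fold (61.1 ± 2.87 against 5.32 ± 2.14 FPKM, SD, n = 2; log2 fold change -3.31). Its levels rest on 571 and 963 reads in NT and on 73 and 38 in OsC3H10OX. In Arabidopsis the related CBF1, CBF2 and CBF3 are induced within minutes of cold, and OsDREB1B is among the rice genes first described as their counterparts.

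OsDREB1H, the next gene along the chromosome, had 8.46 and 14.3 FPKM in NT and 0.477 and 0.941 FPKM in OsC3H10OX. Its group means stood 16.1-fold apart, the widest ratio of the 5 (11.4 ± 4.15 against 0.709 ± 0.328 FPKM, SD, n = 2; log2 fold change -2.83). OsC3H10OX held 11 and 20 reads of it, so the ratio is set by few reads. Both OsC3H10OX libraries were under 1 FPKM, and NT replicate 2 stood 1.69 times above NT replicate 1.

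OsDREB1A had 18.8 and 28.6 FPKM in NT and 7.38 and 7.10 FPKM in OsC3H10OX. The libraries of OsC3H10OX were nearly equal, and the means differed 3.27-fold, the narrowest ratio of the 5 (23.7 ± 6.89 against 7.24 ± 0.196 FPKM, SD, n = 2; log2 fold change -1.55). OsDREB1A is known to be induced by cold and salt. An annotated hypothetical transcript of 222 nt, Os09g0522500, lies inside OsDREB1A and also stood at -1.55 on the log2 scale (not called), and without a stated strand the reads of the pair cannot be told apart.

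OsDREB1C had 4.90 and 8.79 FPKM in NT and 0.417 and 0.587 FPKM in OsC3H10OX, where it was read 10 and 13 times. Its means differed 13.6-fold (6.84 ± 2.75 against 0.502 ± 0.120 FPKM, SD, n = 2; log2 fold change -2.35). It was the least abundant of the 5 in both groups, and its NT libraries were 1.80 times apart.

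Os02g0677300 had 9.999 and 11.98 FPKM in NT and 1.21 and 0.629 FPKM in OsC3H10OX. The means were 10.99 ± 1.40 and 0.918 ± 0.408 FPKM (SD, n = 2), which differ 11.97-fold (log2 fold change -2.66). With 403 and 741 reads in NT and 54 and 26 in OsC3H10OX, it was covered better than OsDREB1H and OsDREB1C.

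**Figure D1:**
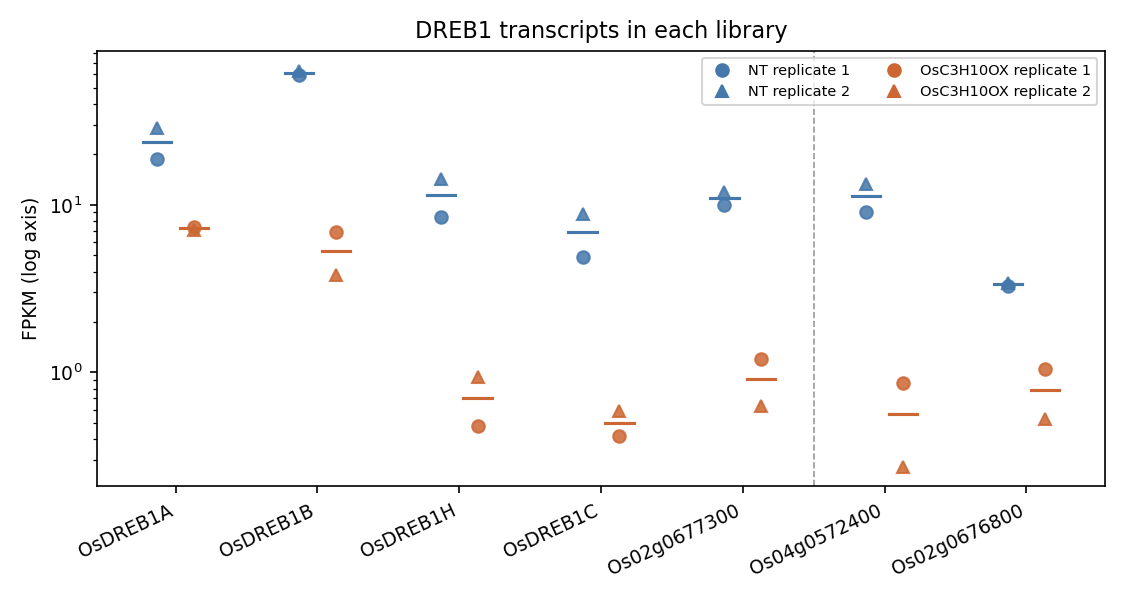
FPKM on a log axis of the 5 DREB1 transcripts (left of the dashed line) and of 2 further DREB1-type transcripts, Os04g0572400 and Os02g0676800 (right), in the 2 NT (blue) and 2 OsC3H10OX (orange) libraries, with horizontal bars at the group means. In each of the 7 transcripts both OsC3H10OX libraries lie under both NT libraries, and OsDREB1A keeps the narrowest distance among the first 5, from 23.7 to 7.24 FPKM.

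Lower values in both OsC3H10OX libraries than in either NT library were found in 28.1% of all tested transcripts, and nothing is read from this for genes chosen on it. OsDREB1B ranked 11, OsDREB1H 33, Os02g0677300 39, OsDREB1C 58 and OsDREB1A 222 among all tested transcripts when ordered from the largest decrease. The median log2 fold change of the 5 was -2.66. As the RNA came from whole plants, fewer cells of a type and less RNA per cell cannot be told apart. The genes are similar in sequence, and how reads that fit several of them were counted is not given in the sources used here.

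The order of the levels differed between the groups. In NT, OsDREB1B led by FPKM, followed by OsDREB1A, and neither overlapped with the next gene. This lead rests on the listed lengths, 442 nt for OsDREB1B and 920 nt for OsDREB1A. OsDREB1B had 571 and 963 reads in NT and OsDREB1A 514 and 1202, so OsDREB1A had more reads in NT replicate 2. OsDREB1H and Os02g0677300 then had overlapping values, and so did OsDREB1H and OsDREB1C. In OsC3H10OX, OsDREB1A was the most abundant, followed by OsDREB1B, whose higher library at 6.84 FPKM came close to it, and the other 3 genes lay between 0.417 and 1.21 FPKM, where OsDREB1H overlapped with both OsDREB1C and Os02g0677300 and these 2 did not overlap with each other. Summed over the 5 genes, the level was 101 and 127 FPKM in NT and 16.3 and 13.1 FPKM in OsC3H10OX, with means of 114 ± 18.1 and 14.7 ± 2.30 FPKM (SD, n = 2) and a ratio of 7.76.

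OsDREB1B made up 58.3% and 49.8% of this sum in the NT libraries and 41.9% and 29.1% in the OsC3H10OX libraries. OsDREB1A made up 18.6% and 22.5% in NT and 45.2% and 54.4% in OsC3H10OX. Like the order of the levels, the shares rest on the listed lengths. Os02g0677300 held 9.87% and 9.45% in NT and 7.40% and 4.82% in OsC3H10OX. The shares of OsDREB1H (2.93% to 11.3%) and OsDREB1C (2.56% to 6.93%) were low throughout. The remaining DREB1 transcripts of OsC3H10OX were thus for the most part those of OsDREB1A and OsDREB1B.

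**Figure D2:**
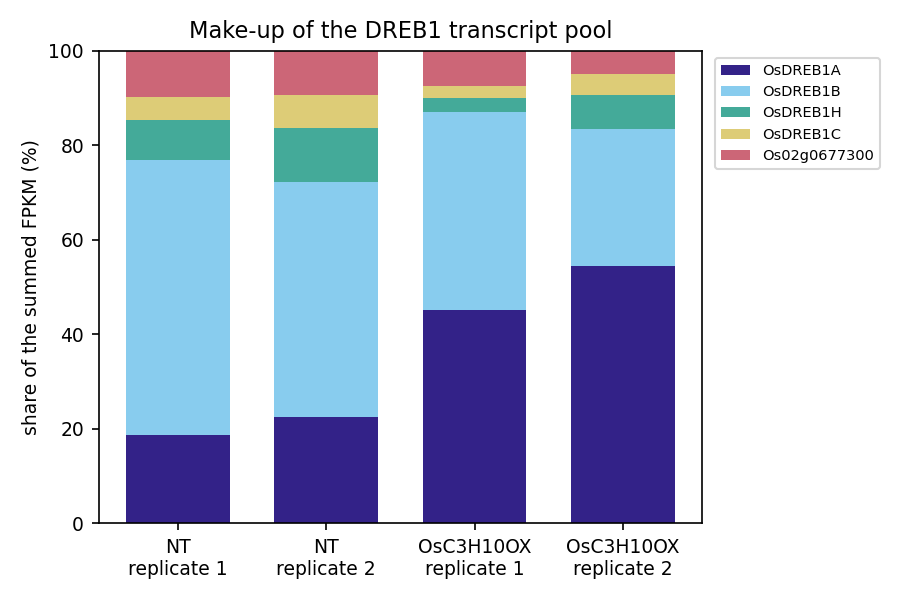
Share of each DREB1 transcript in the summed FPKM of the 5, in percent, with 1 stacked bar for each library. OsDREB1B is the largest piece in both NT libraries (58.3% and 49.8%) and OsDREB1A in both OsC3H10OX libraries (45.2% and 54.4%).

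Within the groups the 5 genes varied in the same direction in NT, by differing amounts, and in both directions in OsC3H10OX. All 5 were higher in NT replicate 2 than in NT replicate 1, by 1.07 times for OsDREB1B, 1.20 for Os02g0677300, 1.52 for OsDREB1A, 1.69 for OsDREB1H and 1.80 for OsDREB1C. Of all tested transcripts, 46.3% were higher in NT replicate 2. In OsC3H10OX, OsDREB1H and OsDREB1C were higher in replicate 2 and the other 3 in replicate 1. OsDREB1B and Os02g0677300 were at 0.557 and 0.522 times the level of replicate 1 in replicate 2. These 2 genes were also those with the smallest gaps in NT.

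**Figure D3:**
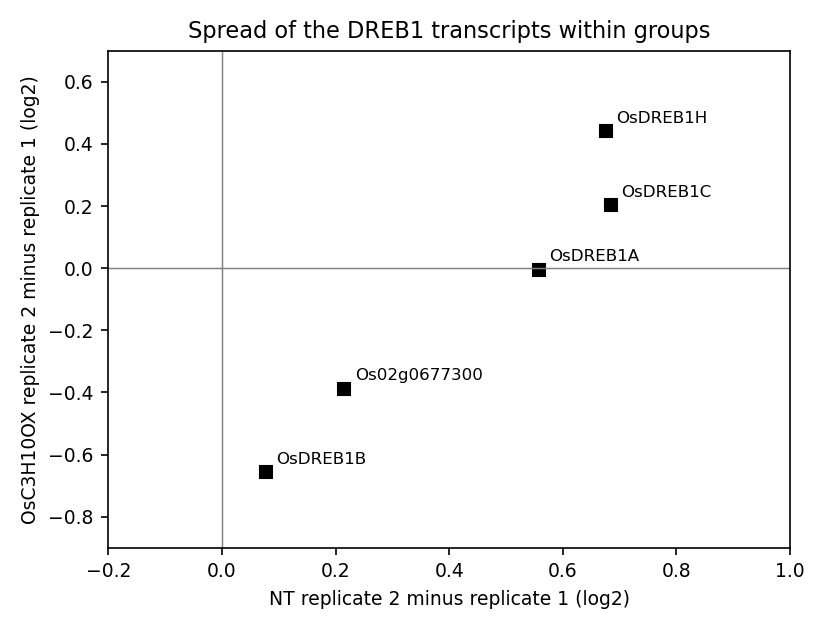
Difference between the libraries of a group for each DREB1 transcript, on the log2(FPKM + 1) scale, in NT (horizontal) and OsC3H10OX (vertical). All 5 lie right of 0, since each was higher in NT replicate 2, while the OsC3H10OX differences run from -0.66 (OsDREB1B) to 0.44 (OsDREB1H).

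The genes share features of position and structure that were no part of their choice. OsDREB1B, OsDREB1H and OsDREB1A stand in a row on chromosome 9, at 20395261 to 20395703, 20399457 to 20400198 and 20403412 to 20404332 (IRGSP-1.0, as listed in the authors' table). The row spans 9.07 kb, with 3.75 kb and 3.21 kb between the genes. OsDREB1C lies on chromosome 6 at 1434769 to 1435533, and Os02g0677300 on chromosome 2 at 27652934 to 27654206. All 5 transcripts are as long as their loci, which leaves no room for an intron, as holds for 24.6% of the transcripts listed. It holds for 50% of 20 transcripts of other DREB or CBF genes, which are described below. Among these are the DREB1-type genes Os02g0676800, Os04g0572400, Os06g0165600 and Os04g0549700, so the trait is not particular to the 5. Their lengths run from 442 nt in OsDREB1B to 1272 nt in Os02g0677300, against a median of 1454 nt over all transcripts.

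The genes around them were examined for a shared change. Within 50 kb of the 5 genes 43 other transcripts of 36 genes start, of which 36 could be tested. Limma called none of them in either direction, against a background of 0.647% and 0.841%, and 1 higher and 4 lower had an unadjusted p under 0.05. The median log2 fold change of the 35 that overlap no member was -0.03. In the chromosome 9 region the 9 tested neighbours without overlap ranged from -0.83 to 0.23. The nearest, the flap endonuclease-like Os09g0521900, starts 5.34 kb before OsDREB1B and stood at -0.06. Next to OsDREB1C, the SET domain gene Os06g0127200 starts 3.61 kb after it and stood at 0.01.

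**Figure D4:**
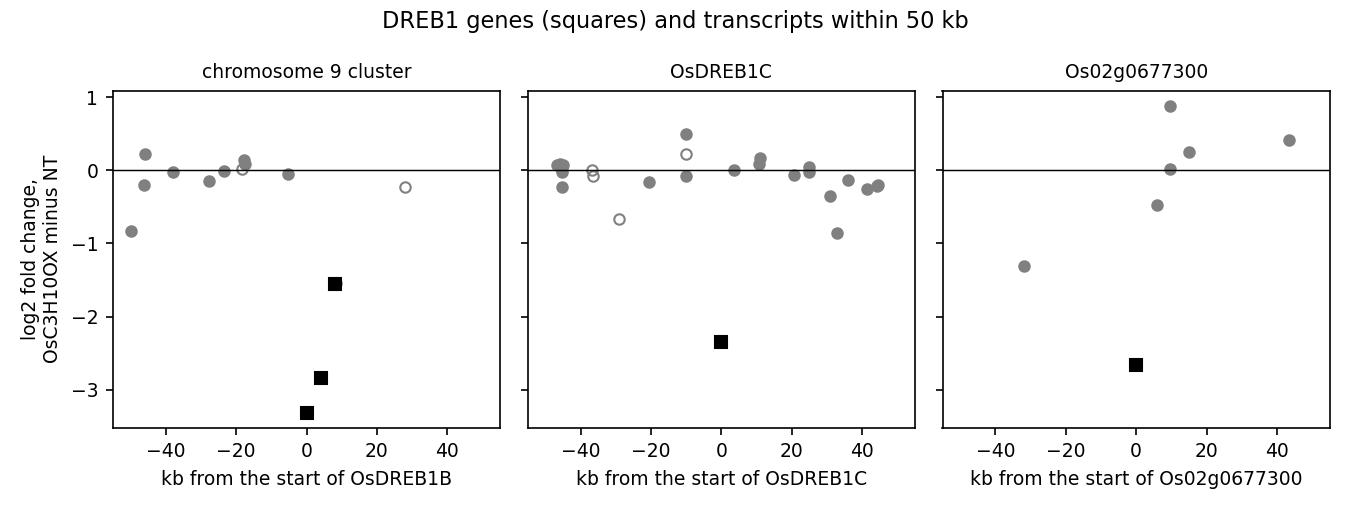
Log2 fold change of the DREB1 transcripts (black squares) and of transcripts starting within 50 kb (grey; open circles were too low to be tested), by distance in kb. The squares lie at -1.55 or below, and the neighbours without overlap between -1.31 and 0.88.

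The lowest of these neighbours, Os02g0676800, is itself a DREB1-type gene, annotated as similar to DREB1E, and starts 31.7 kb before Os02g0677300. It had 3.29 and 3.42 FPKM in NT and 1.05 and 0.525 FPKM in OsC3H10OX. It was not called (log2 fold change -1.31; adjusted p = 0.0595 in limma, BH), although the groups did not overlap. With FPKM summed per gene it did pass (adjusted p = 0.0382, limma, BH).

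Other DREB and CBF genes were collected by words of their annotation, which gave 17 genes with 20 transcripts, 16 of them tested. The words also took in 3 ICE1-like transcripts and 2 other proteins with CBF in their names, a CCAAT-binding subunit and a co-repressor, and the list was left as it was. Limma called 1 lower and none higher (2 and 2 at an unadjusted p under 0.05), and the median log2 fold change was -0.05. The called transcript was Os04g0572400, like Os02g0677300 annotated as similar to CRT/DRE binding factor 1. It had 9.10 and 13.3 FPKM in NT and 0.862 and 0.275 FPKM in OsC3H10OX, so the groups lay far apart. It fell by 2.97 on the log2 scale (limma, BH adjusted p = 0.0270), within the range of the 5 members. Os04g0572400 passed the filter through NT alone, so the 1 call of this list rests on a transcript let in by its high group. The call was lost without NT replicate 1 (adjusted p = 0.0641, limma, BH), without NT replicate 2 (0.201), on the log2(FPKM + 0.1) scale (0.0606), with no filter on low values (0.0814) and with a replicate block (0.104).

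The remaining DREB1-type genes were low or alike in the groups. Os06g0165600, annotated as a CRT/DRE binding factor, was at 0.401 FPKM or less in each library and was not tested. The DREB1F-like Os04g0549700 had 12.3 and 14.0 FPKM in NT and 9.87 and 16.7 FPKM in OsC3H10OX (-0.02, adjusted p = 0.976, limma, BH).

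DREB2-type factors, which act mainly in dehydration and heat, were not called with all libraries. The DRE binding protein 2 transcript of Os01g0165000 had 8.71 and 8.77 FPKM in NT and 9.50 and 8.14 FPKM in OsC3H10OX, and the DREB2B-like Os05g0346200 stood between 48.3 and 53.3 FPKM in all libraries. The first transcript of the DREB2B-like Os02g0752800 had 136 and 122 FPKM in NT and 241 and 200 FPKM in OsC3H10OX, values that do not overlap (0.86, adjusted p = 0.0938, limma, BH). It was called without OsC3H10OX replicate 2 (1.001 on the log2 scale; adjusted p = 0.0492 in limma, BH). The DREB2F-like Os04g0648900 had 33.3 and 39.6 FPKM in NT and 50.3 and 44.1 FPKM in OsC3H10OX (0.41, adjusted p = 0.255, limma, BH).

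Regulators known to act on DREB1 genes were compared next. Of 9 such genes, 13 transcripts were tested and limma called none in either direction, against 2 higher and 1 lower at an unadjusted p under 0.05. Their log2 fold changes ran from -0.45 to 0.58, with a median of 0.00, and their adjusted p values from 0.167 to 0.986 (limma, BH). ICE1-like factors are activators: Os11g0523700 had 11.998 and 13.6 FPKM in NT and 11.5 and 7.00 FPKM in OsC3H10OX (log2 fold change -0.45), and Os01g0928000 stood at -0.21. The main transcript of the repressor MYBS3 (Os10g0561400) had 28.1 and 27.9 FPKM in NT and 33.5 and 33.4 FPKM in OsC3H10OX (0.27, adjusted p = 0.244, limma, BH).

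A helix-loop-helix gene had the highest value, and a MAP kinase gene one near the lowest. The helix-loop-helix gene Os03g0782500 had 8.64 and 11.6 FPKM in NT and 16.2 and 14.7 FPKM in OsC3H10OX (0.58, adjusted p = 0.203, limma, BH). The second transcript of the MAP kinase gene Os03g0285800 had 22.2 and 25.1 FPKM in NT and 16.8 and 16.9 FPKM in OsC3H10OX (-0.45, adjusted p = 0.167, limma, BH). Transcripts of the light receptor phytochrome B (Os03g0309200) had 0.25 and 0.32, the helix-loop-helix gene Os07g0143200 had 0.29, and the others on the list, Os03g0737200 and Os04g0600800, had -0.03 and 0.00. Of 5 transcripts found by words for CAMTA factors 4 were ubiquitin-fold proteins, and the CG-1-like Os03g0191000 had 33.9 and 32.5 FPKM in NT and 38.3 and 42.3 FPKM in OsC3H10OX (0.30, adjusted p = 0.246, limma, BH). None of the 5 was called (1 higher and 0 lower at an unadjusted p under 0.05).

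Clock genes were listed because DREB1 transcripts cycle over the day, and the hour of harvest of each group is not given in the sources used here. Of 11 genes 16 transcripts were tested and limma called none in either direction (1 and 1 at an unadjusted p under 0.05), with a median log2 fold change of 0.20. GIGANTEA (Os01g0182600), which peaks late in the day, had 318 and 286 FPKM in NT and 306 and 331 FPKM in OsC3H10OX. The morning gene LHY (Os08g0157600) had 3.31 and 3.25 FPKM in NT and 4.38 and 7.03 FPKM in OsC3H10OX (0.61, adjusted p = 0.301, limma, BH), low beside GIGANTEA in all 4 libraries. The LUX gene Os01g0971800, annotated as similar to a response regulator, stood apart. It had 95.2 and 88.3 FPKM in NT and 29.8 and 50.1 FPKM in OsC3H10OX. It was not called (-1.17; adjusted p = 0.159 in limma, BH), but was without OsC3H10OX replicate 2 (-1.54, adjusted p = 0.0279, limma, BH). Among the other clock genes, the ELF3-like Os06g0142600 stood at 0.30, Os01g0566100 at 0.13 and the ELF4-like Os11g0621500 at 0.07. The response regulator genes Os07g0695100, Os09g0532400, Os11g0157600 and Os02g0618200 ranged from 0.09 to 0.39, and Os03g0284100, whose second transcript had 7.01 and 65.2 FPKM in the NT libraries, from -1.15 to 0.92. Without NT replicate 1 this second transcript was called (-2.64, adjusted p = 0.0386, limma, BH). The part of the clock in the DREB1 levels was not tested.

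Genes that DREB1 factors may act on were taken by annotation, and binding was not measured. Of 19 genes annotated with cold or low temperature, 18 transcripts were tested and limma called none in either direction (2 higher and 3 lower at an unadjusted p under 0.05), with a median of 0.08. COR413-TM1 (Os05g0566800), of a family of cold acclimation membrane proteins, had 29.6 and 37.4 FPKM in NT and 11.2 and 19.4 FPKM in OsC3H10OX (-1.11, adjusted p = 0.197, limma, BH). The lt101.2-like Os03g0286900, of a family of small hydrophobic proteins, had 8.43 and 10.4 FPKM in NT and 22.2 and 17.1 FPKM in OsC3H10OX (0.996, adjusted p = 0.102, limma, BH). These 2 transcripts differed in opposite directions, with no overlap of the groups in either. The LTI6A transcript Os07g0635900 had 322 and 339 FPKM in NT and 223 and 241 FPKM in OsC3H10OX (-0.42, adjusted p = 0.175, limma, BH), and the cold-annotated kinase Os03g0319400 stood at -0.45 (adjusted p = 0.213, limma, BH).

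Dehydrins are hydrophilic proteins that build up during cold and water loss. Of 9 dehydrin transcripts 6 were tested and limma called none (3 higher and 0 lower at an unadjusted p under 0.05), with a median log2 fold change of 0.72. The abundant LIP5-like Os03g0655400 had 593 and 748 FPKM in NT and 560 and 724 FPKM in OsC3H10OX (-0.08, adjusted p = 0.859, limma, BH). The dehydrin family gene Os02g0669100 had 88.7 and 93.8 FPKM in NT and 72.6 and 73.9 FPKM in OsC3H10OX (-0.24, adjusted p = 0.290, limma, BH). The higher values were those of the RAB16B gene, the RAB16-type Os11g0454300 and the RAB17-like Os11g0451700 (1.95, 3.08 and 1.34). They were 2.37, 3.85 and 1.74 without OsC3H10OX replicate 2. Os11g0454300 had 1.74 and 2.59 FPKM in NT and 43.2 and 14.4 FPKM in OsC3H10OX. RAB16B had 0.351 and 0.621 FPKM in NT and 6.80 and 3.24 FPKM in OsC3H10OX. Os11g0451700 had 0.246 and 0.352 FPKM in NT and 3.46 and 1.47 FPKM in OsC3H10OX. RAB16B and Os11g0451700 passed the filter through OsC3H10OX alone, and the median and unadjusted count above rest partly on them. Enzymes of raffinose synthesis, which make a sugar that builds up in the cold, gave 4 tested transcripts with none called (0 and 0 at an unadjusted p under 0.05). The galactinol synthase-like Os03g0316200, for the first step, had 14.5 and 15.8 FPKM in NT and 9.45 and 12.7 FPKM in OsC3H10OX (-0.42, adjusted p = 0.317, limma, BH).

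**Figure D5:**
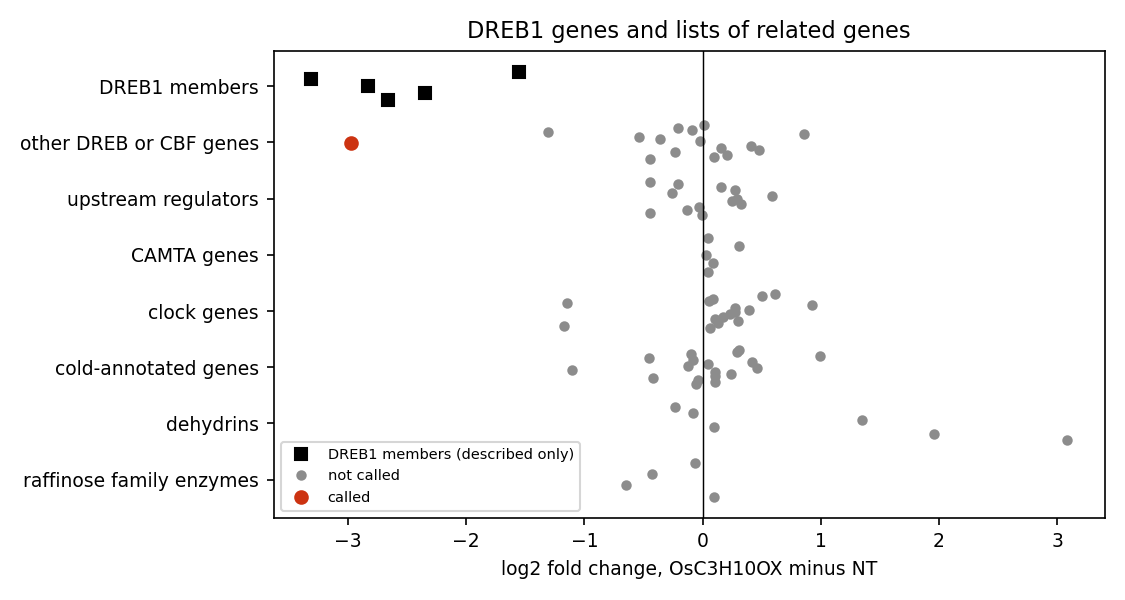
Log2 fold change, OsC3H10OX minus NT, of the 5 DREB1 transcripts (black squares, described only) and of the tested transcripts in each list of related genes (grey, not called by limma; red, called). The squares run from -3.31 to -1.55, and the red point, Os04g0572400 at -2.97, is the only called transcript among the lists shown. It passed the filter through NT alone.

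The wider AP2/ERF class was counted by annotation words. Of 90 genes with 100 transcripts, 76 were tested, and limma called 6 lower and none higher, with 0.841% and 0.647% as the background (17 lower and 7 higher at an unadjusted p under 0.05). The median log2 fold change was -0.03. Os09g0457900, Os03g0183200 and Os08g0474000, all called, passed the filter through NT alone, and the count of 6 rests partly on them. The RAP2.6-like Os09g0457900 had 5.87 and 5.91 FPKM in NT and 0.239 and 0.230 FPKM in OsC3H10OX (-2.48, adjusted p = 0.00755, limma, BH). The AP2 domain gene Os03g0183200 had 7.87 and 8.19 FPKM in NT and 0.941 and 0.835 FPKM in OsC3H10OX (-2.26, adjusted p = 0.00849, limma, BH). A more abundant RAP2.6-like gene, Os04g0610400, had 55.01 and 60.6 FPKM in NT and 12.3 and 13.6 FPKM in OsC3H10OX (-2.05, adjusted p = 0.0110, limma, BH). Calls in this class fell to 1 without NT replicate 1, 0 without NT replicate 2 and 3 without OsC3H10OX replicate 1, and were 6 lower and 5 higher without OsC3H10OX replicate 2. With no filter on low values 3 were called, and with a replicate block 0.

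The transcripts whose pattern was most like that of the DREB1 genes were found by the distance, over the 4 libraries, between centred log2 values and the mean DREB1 profile. Of the 30444 other transcripts compared, 142 lay no further from it than the furthest member, OsDREB1A at 0.995. The nearest was Os10g0391400, a Tify domain gene, the family that includes the JAZ repressors of jasmonate signaling, with 8.76 and 12.1 FPKM in NT and 0.904 and 0.979 FPKM in OsC3H10OX (distance 0.139). The IAA-amino acid hydrolase-like Os03g0836800, of a family that frees auxin from its conjugates, followed with 15.1 and 16.9 FPKM in NT and 1.88 and 2.04 FPKM in OsC3H10OX (0.263). Nearer than every member but not as near as these were the kinase gene Os01g0699600 (0.287) and the kinase-related Os01g0783800 (0.289). A transcript of the aspartic peptidase gene Os04g0330900 (0.331) and one of the phytoene dehydrogenase-like Os12g0631800 (0.343) completed the 6, and both were under 0.001 FPKM in OsC3H10OX. Likeness to a profile taken from 4 libraries in 2 groups mostly reflects the size of the difference between the groups.

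Markers of organs were compared as well, since whole plants hold leaf and root. Of 25 tested leaf transcripts, for the Rubisco small subunit and chlorophyll a/b-binding proteins, limma called 1 higher (Os12g0274700) and none lower (by unadjusted p under 0.05, 6 higher and 1 lower). The annotation words also took in Os02g0725200, similar to an N-methyltransferase of the Rubisco small subunit. All 27 listed leaf transcripts, tested or not, summed to 15778 and 14999 FPKM in NT and 19010 and 21266 FPKM in OsC3H10OX. Of 4 tested root transcripts limma called none (0 higher and 1 lower at an unadjusted p under 0.05). All 5 listed root transcripts, tested or not, summed to 604 and 599.5 FPKM in NT and 496 and 492 FPKM in OsC3H10OX. The root gene RCc3 (Os02g0662000) had 392 and 390 FPKM in NT and 265 and 272 FPKM in OsC3H10OX (-0.44, adjusted p = 0.155, limma, BH). The silicon transporter gene Os02g0745100, the BCH2-like Os02g0112100 and the ion transporter gene Os06g0701700 stood at 0.21, 0.02 and 0.05. The reference gene OsUBI1 (Os06g0681400) stood at 0.15. The summed markers of both organs did not overlap between the groups, though of the tested root transcripts only RCc3 stood lower in OsC3H10OX. The part of the markers in the DREB1 levels was not tested.

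No call by limma held without NT replicate 2, where it called none of the tested transcripts (2488 at an unadjusted p under 0.05), against 453 with all libraries. Over other scales, FPKM summed per gene and each library left out, the log2 fold changes of OsDREB1B ran from -3.64 to -2.98, of OsDREB1H from -3.84 to -2.49, of Os02g0677300 from -3.50 to -2.47, of OsDREB1C from -3.48 to -2.01 and of OsDREB1A from -1.83 to -1.27. Their spread within the groups was 0.22 to 0.40 on the log2 scale.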

How the data were processed

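Per the labels and the study's methods, RNA of 2 NT and 2 OsC3H10OX samples was made into TruSeq v2 libraries, and single-end reads were trimmed with Trimmomatic 0.32 and mapped with TopHat to IRGSP-1.0 and its RAP-DB genes. The authors deposited FPKM for each transcript; the estimating tool is not given in the sources used here. They also deposited log2 values, log2(FPKM + 1) quantile-normalized over the libraries, and comparison columns (fold changes, p-values, means and SDs), which were not used. The fits used limma 3.58.1 in R 4.3.3 (trend, prior degrees of freedom 2.37, two-sided, BH over 30449 transcripts). Read numbers were inferred from the steps of low FPKM, of which 92.0% to 94.0% were whole within 0.05. Members and lists were chosen with earlier results of these data known. Named were the members, all genes listed by identifier, overlapping transcripts, up to 4 transcripts of smallest p in each list made from annotation words, and the 6 most alike; further named transcripts were chosen after their values were seen. Names follow the table's annotation. Replicate numbers do not pair the samples. Alternatives were other log2 scales, quantile normalization again, FPKM summed per gene, other filters, limma without trend or with robust estimation, a replicate block and each library left out, which gives the lone library the spread of the other group.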

Additional observations from a re-analysis of the deposited data

How the results depend on the processing

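With the main settings limma called 453 transcripts and 1 transcript of the lists of related genes. With no filter on low values the calls were 126 and 0, at a filter of 5 FPKM 287 transcripts, and leaving out 1 library in turn gave 0 to 1029 transcripts and 0 to 6 of the lists. The lists gave 0 calls on the log2(FPKM + 0.1) scale and 2 with FPKM summed per gene. The median log2 fold change of the 5 DREB1 transcripts, -2.66, became -3.50 on the log2(FPKM + 0.1) scale. On this scale OsDREB1H, OsDREB1C and Os02g0677300 moved by more than their spread within groups. The cause of these changes was not tested, except that fewer libraries or other filters change what is tested. With a replicate block 25 transcripts and 0 of the lists were called, though the deviations of same-numbered samples had a correlation of -0.03. Values near 1 FPKM rest on few reads, and 4 libraries of 1 line limit every comparison.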
